A study of Mus musculus with 8 samples.

Results

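The renin-angiotensin system was followed in mouse kidney through 7 genes: Agt, Ren1, Ace, Mme, Enpep, Agtr1a and Atp6ap2. They were taken by gene symbol from the deposited expression table, which lists 34745 genes, and all 7 were among the 16576 with enough counts to be tested. Kidney RNA was sequenced in 8 libraries, all labelled wild type (WT) and day 14. The sham group had 2 libraries, the group labelled uIRI had 3, and the group labelled uIRI+MSC, which also received an MSC transplant, had 3. The labels spell out neither abbreviation and give no strain, sex or age of the mice, nor the source, dose or time of the transplanted cells. They do not say whether the libraries came from separate animals, so p-values measure the spread between these libraries, which may be technical.

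In the classical arm of this system renin, a protease released by granular cells of the afferent arteriole, cuts angiotensinogen to angiotensin I, and angiotensin-converting enzyme trims that to angiotensin II. Angiotensin II acts through its type 1 receptor on vessels, glomeruli and tubules to raise blood pressure and retain sodium. Other membrane peptidases, many of them on the brush border of the proximal tubule, cut the same peptides further: neprilysin (Mme) can yield the heptapeptide that acts through the receptor Mas1, and aminopeptidase A (Enpep) starts the breakdown of angiotensin II.

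The smallest library held 11592986 counts and the largest 24300112, and every member had at least 360 counts in every library. Levels are given as CPM, counts scaled to a library of 1000000 counts, after adjustment by TMM, a method that sets libraries level on the bulk of their genes. TMM factors were 0.706 and 0.766 for the sham libraries, between 1.13 and 1.22 for uIRI, and between 1.03 and 1.07 for uIRI+MSC. The share of RNAs encoded by the mitochondrial genome was 14.2% in each sham library, between 3.49% and 4.84% for uIRI, and between 6.07% and 11.3% for uIRI+MSC. Scaling by library size alone moved the median log2 change of all tested genes from 0.06 to 0.73 for uIRI against sham, from -0.01 to -0.16 for uIRI+MSC against uIRI and from 0.03 to 0.55 for uIRI+MSC against sham. Changes are therefore stated relative to the TMM scale, and each member's direction that turns with library size alone is named. The summed level of 16 proximal tubule markers ranged over 28019 to 30508 CPM in sham, 1553 to 5036 CPM in uIRI and 7656 to 9743 CPM in uIRI+MSC, with 0 of the 16 at 0 in any group. In tissue RNA, fewer cells of a type and less RNA per cell cannot be told apart.

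The question of the first comparison was how the genes of the system differed between uIRI and sham kidney at day 14. Agt, Ace, Mme, Enpep and Atp6ap2 fell (5 of 7 members), 0 of 7 rose, and Ren1 and Agtr1a did not pass the test. Over all 16576 tested genes 54.6% were called in this comparison (28.3% as higher and 26.3% as lower in uIRI), at an adjusted p under 0.05 from edgeR's quasi-likelihood test. The median log2 change of the members was -0.73, against 0.06 for all tested genes. In CPM the sham and uIRI libraries did not overlap for any of the 7 members, which was also so for 77.1% of all tested genes. Scaled by library size alone, 9044 genes were called higher and 1989 lower, and 2 of the 7 members, Ace and Agt, were called lower.

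**Figure D1:**
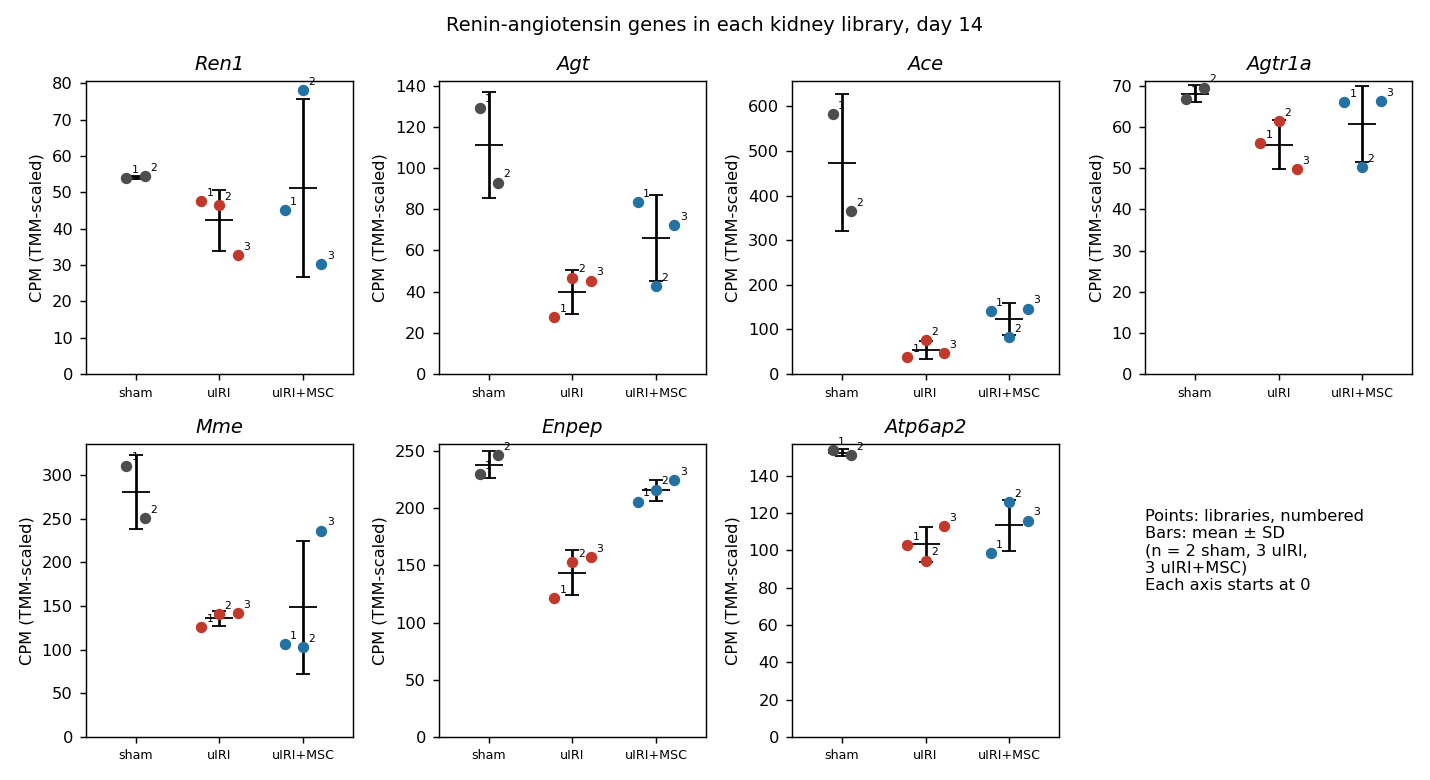
Level of each member in TMM-scaled CPM (vertical axes, linear from 0) in the 8 libraries (points, numbered by replicate), with bars for the group mean and SD. Ace is at 582 and 365 CPM in sham and between 37.6 and 76.1 CPM in uIRI, while Ren1, Agtr1a and Atp6ap2 sit slightly lower in uIRI than in sham, a direction that turns with library size alone.

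Agt (ENSMUSG00000031980, GRCm38 chr8:124556534-124569706, minus strand) encodes angiotensinogen, the substrate of renin. Its level was 129 and 92.9 CPM in the sham libraries, 27.6, 46.7 and 45.3 CPM in uIRI, and 83.3, 42.7 and 72.1 CPM in uIRI+MSC. Every sham library was above every other library, and uIRI+MSC 2 was the one treated library inside the uIRI range. In uIRI Agt fell 2.79-fold (log2 change -1.48 ± 0.31 SE, 95% interval -2.19 to -0.76, adjusted p = 0.00400), and it was called lower in all 16 alternative settings. The same libraries held less RNA of hepatocyte genes, which the kidney also expresses in part: 5 of 6 listed genes fell, and their summed level was 377 to 553 CPM in sham, 16.2 to 55.6 CPM in uIRI and 81.0 to 100 CPM in uIRI+MSC, with 0 of 6 at 0 in any group. In sham most of that sum was Apob, with a mean of 327 CPM in sham and 15.5 CPM in uIRI. Albumin (Alb) had 7.41 and 0.43 CPM. The 1 gene that did not fall, the fibrinogen gene Fgb, had log2 change 0.21 in uIRI. It stood at 12.0, 24.8 and 10.8 CPM in uIRI+MSC, against 2.53 and 3.31 CPM in sham. Over all tested genes 26.3% were called lower in uIRI. The part of these hepatocyte genes in the result for Agt was not tested.

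Ren1 (ENSMUSG00000070645, chr1:133350510-133360325, plus strand) encodes renin. Its level was 53.9 and 54.5 CPM in sham, 47.6, 46.5 and 32.7 CPM in uIRI, and 45.1, 78.1 and 30.2 CPM in uIRI+MSC. The uIRI+MSC libraries held both the highest and the lowest value of the 8. The log2 change of uIRI against sham was -0.36 ± 0.34 (interval -1.14 to 0.43, adjusted p = 0.403), and it was 0.31 with library size alone. Some mouse strains carry a closely related additional renin gene, Ren2, which was not analysed here, and since the strain and the handling of shared reads are not given, reads of such a copy may stand in the Ren1 counts.

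Genes known from renin-producing cells and the neighbouring macula densa did not move as one block. Of 9 listed, 3 rose in uIRI and 0 fell, with a median log2 change of 0.78, while 28.3% of all tested genes were called higher. With library size alone 7 of the 9 were called higher, on a scale where most of all called genes were higher. Ptgs2, the inducible cyclooxygenase of the macula densa and of inflamed tissue, rose by 3.21 ± 0.41 on the log2 scale (adjusted p = 0.000306) from a mean of 0.33 to 3.13 CPM. The prostaglandin E2 receptor gene Ptger4 rose by 2.82 ± 0.19 (adjusted p = 2.85e-05), and the aldo-keto reductase gene Akr1b7, a product of renin cells and of adrenal cortex, rose by 1.19 ± 0.32 (adjusted p = 0.0124) from 2.94 to 6.69 CPM. Without sham 2 Akr1b7 did not pass (1.00, adjusted p = 0.0851). Connexin 40 (Gja5), which couples renin cells to their neighbours, had log2 change 0.78 ± 0.55 (adjusted p = 0.258), with 2.23 and 11.4 CPM in the sham libraries. Without sham 2 its change was 2.41 (adjusted p = 0.00464) and without sham 1 it was 0.06. The other 5, Gja4, Nos1, Adrb1, Adora1 and Foxd1, did not pass and ranged from -0.43 to 1.04. Beside these values, markers of vascular mural cells summed to 307 to 480.1 CPM in sham and 935 to 1579 CPM in uIRI (7 of 9 rose, 0 of 9 at 0), markers of macrophages to 216 to 260.4 CPM and 2992 to 4674 CPM (7 of 7 rose), and adrenal cortex markers, which include Akr1b7, to 3.31 to 5.54 CPM and 8.55 to 12.2 CPM, with 5 of 7 at 0 in sham. Akr1b7 itself made up most of the adrenal sum, at 3.40 and 2.49 CPM in sham and 5.72, 9.02 and 5.32 CPM in uIRI. That sum is therefore not separate from the rise of Akr1b7. The part of these cell types in these changes was not tested. In uIRI+MSC against uIRI 0 of the 9 renin cell and macula densa genes were called, with a median log2 change of -0.47. Against sham 3 of the 9 rose in uIRI+MSC and 0 fell, with a median of 0.45, while 22.1% of all tested genes were called higher.

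Ace (ENSMUSG00000020681, chr11:105967945-105989964, plus strand) encodes angiotensin-converting enzyme, carried by endothelium and by the brush border of the mouse proximal tubule. Its level was 582 and 365 CPM in sham, 37.6, 76.1 and 46.7 CPM in uIRI, and 141, 82.3 and 146 CPM in uIRI+MSC. The 3 groups did not overlap: all sham libraries were above all uIRI+MSC libraries, and those above all uIRI libraries. In uIRI Ace fell 8.86-fold (log2 change -3.15 ± 0.36, interval -3.98 to -2.32, adjusted p = 0.000191), the largest fall among the 7 members, and it was called in all 16 alternative settings. On the TMM scale endothelial markers as a list stood close to sham in uIRI (summed level 630 to 698 CPM in sham and 614 to 670 CPM in uIRI). Of these 1 of 7 fell and 0 rose, with log2 changes in both directions, from -0.54 to 0.51. All 16 proximal tubule markers fell, with a median log2 change of -3.18. Neither list was summarised with library size alone. Over all tested genes 26.3% were called lower in uIRI. How far the fall of the tubule markers bears on Ace was not tested. The gene overlaps in part with a predicted antisense gene, Gm11651, which had 0 counts in every library. RefSeq lists a further start within the gene, and counts per gene do not separate the isoforms.

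Mme (ENSMUSG00000027820, chr3:63241537-63386030, plus strand) encodes neprilysin, a brush border endopeptidase that cuts angiotensin I and many other peptides. Its level was 311 and 251 CPM in sham, 126, 141 and 142 CPM in uIRI, and 106, 103 and 236 CPM in uIRI+MSC. The uIRI libraries lay close together, and uIRI+MSC 3 stood near sham while uIRI+MSC 1 and 2 were below every uIRI library. The library uIRI+MSC 3 also had the fewest counts, and 11.3% mitochondrial RNA against 6.07% and 6.24% in uIRI+MSC 1 and 2. Whether this bears on its Mme level was not tested. In uIRI Mme fell 2.07-fold (log2 change -1.05 ± 0.33, interval -1.81 to -0.29, adjusted p = 0.0265). This call was lost without sham 1 (-0.86, adjusted p = 0.153), sham 2 (0.0580), uIRI 1 (0.0641), uIRI 2 (0.0556) or uIRI 3 (0.0557), and with library size alone (-0.37, adjusted p = 0.314).

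Enpep (ENSMUSG00000028024, chr3:129269175-129332720, minus strand) encodes aminopeptidase A, which removes the N-terminal aspartate of angiotensin II. Its level was 229.8 and 247 CPM in sham, 121, 153 and 157 CPM in uIRI, and 206, 216 and 225 CPM in uIRI+MSC. The uIRI libraries were the 3 lowest, and the uIRI+MSC libraries fell between them and sham without overlap. In uIRI Enpep fell 1.66-fold (log2 change -0.73 ± 0.15, interval -1.07 to -0.39, adjusted p = 0.00314). With library size alone it was at -0.07 (adjusted p = 0.679), so its fall is one relative to the bulk of genes.

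Agtr1a (ENSMUSG00000049115, chr13:30336441-30382867, plus strand) encodes the main type 1 angiotensin II receptor of the mouse. Its level was 66.7 and 69.5 CPM in sham, 56.0, 61.4 and 49.7 CPM in uIRI, and 66.0, 50.2 and 66.3 CPM in uIRI+MSC. The whole range over 8 libraries was narrow, and uIRI and uIRI+MSC overlapped. The log2 change of uIRI against sham was -0.29 ± 0.16 (interval -0.65 to 0.07, adjusted p = 0.153). Library size alone gave 0.38 (adjusted p = 0.0667). The other angiotensin II receptor genes were near the limit of detection: Agtr1b had 0 to 4 counts per library and so did Agtr2, too few to be tested.

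Atp6ap2 (ENSMUSG00000031007, chrX:12587801-12617049, plus strand) encodes the prorenin receptor, which is also an accessory protein of the vacuolar proton pump. Its level was 154 and 151 CPM in sham, 103, 94.4 and 113 CPM in uIRI, and 98.5, 125.8 and 116 CPM in uIRI+MSC. Both sham libraries were above all 6 others. In uIRI Atp6ap2 fell 1.47-fold (log2 change -0.56 ± 0.14, interval -0.89 to -0.23, adjusted p = 0.0104), but it was at 0.11 with library size alone and did not pass without sham 1 (adjusted p = 0.0707) or sham 2 (0.0560). A list of 20 genes of the pump held its subunits and Atp6ap1, another accessory protein. Of these 13 fell and 0 rose in uIRI, while 26.3% of all tested genes were called lower. The median log2 change of the 20 was -0.65. Their count depends on how libraries are scaled. With library size alone, where most of all called genes were higher, 6 were called lower and 2 higher. The median was then 0.01, and 10 of 20 changed sign. The 4 with the smallest p were Atp6v1h (-1.28 ± 0.12, adjusted p = 7.58e-05), Atp6v1a (-1.77 ± 0.17, 7.77e-05), Atp6v1d (-1.01 ± 0.13, 0.000383) and Atp6v1b2 (-1.30 ± 0.18, 0.000428), all parts of the cytosolic sector. On that scale Atp6v1d was at -0.34 (adjusted p = 0.0541) and the other 3 at -0.61 to -1.10. Against sham 13 of the 20 pump genes fell in uIRI+MSC, with a median of -0.73, while 20.3% of all tested genes were called lower. There library size alone called 4 lower and 2 higher. Against uIRI 0 of the 20 were called, with a median of 0.11.

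The bases upstream of the start of transcription that RefSeq gives are shown for Ace and Agt, the members called lower in every setting for uIRI against sham, and for Enpep, whose uIRI and uIRI+MSC libraries did not overlap. They are RefSeq promoters on GRCm38.p6, printed 5′ to 3′ on the strand of the gene, and capitals mark matches to motifs searched on both strands. The motifs were TATAAA (in 12.4% of 32851 RefSeq promoters), CAAAGT (12.6%), which is part of the site of HNF4 factors, GTTAAT (6.43%), part of the site of HNF1 factors, and TGACGT (6.47%), the core of cyclic AMP response elements. The windows are chr11:105967698-105967944 for Ace (plus strand), chr8:124569707-124569956 for Agt (minus strand) and chr3:129332750-129332999 for Enpep (minus strand).
Ace: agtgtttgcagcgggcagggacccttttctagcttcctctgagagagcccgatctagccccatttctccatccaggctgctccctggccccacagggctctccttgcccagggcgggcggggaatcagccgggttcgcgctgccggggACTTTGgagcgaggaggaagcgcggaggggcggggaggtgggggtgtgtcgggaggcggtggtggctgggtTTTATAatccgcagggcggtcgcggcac
Agt: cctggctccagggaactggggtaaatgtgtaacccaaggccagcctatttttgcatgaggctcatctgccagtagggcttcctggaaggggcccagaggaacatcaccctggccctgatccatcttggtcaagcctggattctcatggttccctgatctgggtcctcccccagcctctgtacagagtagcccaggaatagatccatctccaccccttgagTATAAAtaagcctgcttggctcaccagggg
Enpep: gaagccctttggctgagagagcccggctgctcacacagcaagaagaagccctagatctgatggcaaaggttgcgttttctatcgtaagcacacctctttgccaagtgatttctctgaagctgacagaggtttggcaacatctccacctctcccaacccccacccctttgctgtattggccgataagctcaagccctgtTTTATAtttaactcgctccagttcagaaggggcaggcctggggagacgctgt
Positions count back from the RefSeq start, which is chr8:124569706 and the start of the gene for Agt, lies 3 bases inside the gene for Ace (chr11:105967948, the printed window ending before the gene) and 29 bases upstream of it for Enpep (chr3:129332749). Ace holds TATAAA in its reverse complement TTTATA at bases 31 to 26 before the start and CAAAGT in its reverse complement ACTTTG at bases 102 to 97. Agt holds TATAAA as written at bases 30 to 25, and Enpep its reverse complement at bases 52 to 47. GTTAAT and TGACGT were not found in these 3 windows. A match is a description of the letters and was tied to no binding data here.

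The comparison of uIRI+MSC with uIRI asked whether the transplant went with a different level of these genes. No member passed: 0 of 7 were called, and 0% of all tested genes were called by edgeR. At an unadjusted p under 0.05 there were 3 of 7 members (Ace, Enpep and Agt, all higher in uIRI+MSC) against 20.6% of all tested genes, 3418 genes. DESeq2 called 1336 genes, among them Ace and Enpep, and limma-voom called 0. Ace had log2 change 1.21 ± 0.32 (interval 0.47 to 1.95, adjusted p = 0.123), and Enpep 0.59 ± 0.13 (interval 0.28 to 0.89, adjusted p = 0.111). Both had every uIRI+MSC library above every uIRI library, as did 14.1% of all tested genes. Agt had 0.73 ± 0.29 (interval 0.08 to 1.38, adjusted p = 0.204), with overlap between the groups. Proximal tubule markers had a median of 1.22 in this comparison, with 0 of 16 called, and their part in these values was not tested.

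The remaining members showed small differences between uIRI+MSC and uIRI with intervals across 0. Ren1 had log2 change 0.27 (interval -0.43 to 0.98), and -0.16 without uIRI+MSC 2, the library with 78.1 CPM. Mme had 0.12 (interval -0.57 to 0.81), and -0.37 without uIRI+MSC 3, the library with 236 CPM. Agtr1a was at 0.13 (interval -0.20 to 0.45) and Atp6ap2 at 0.13 (interval -0.16 to 0.43), and with library size alone Agtr1a, Atp6ap2 and Mme were at -0.028, -0.020 and -0.036.

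**Figure D2:**
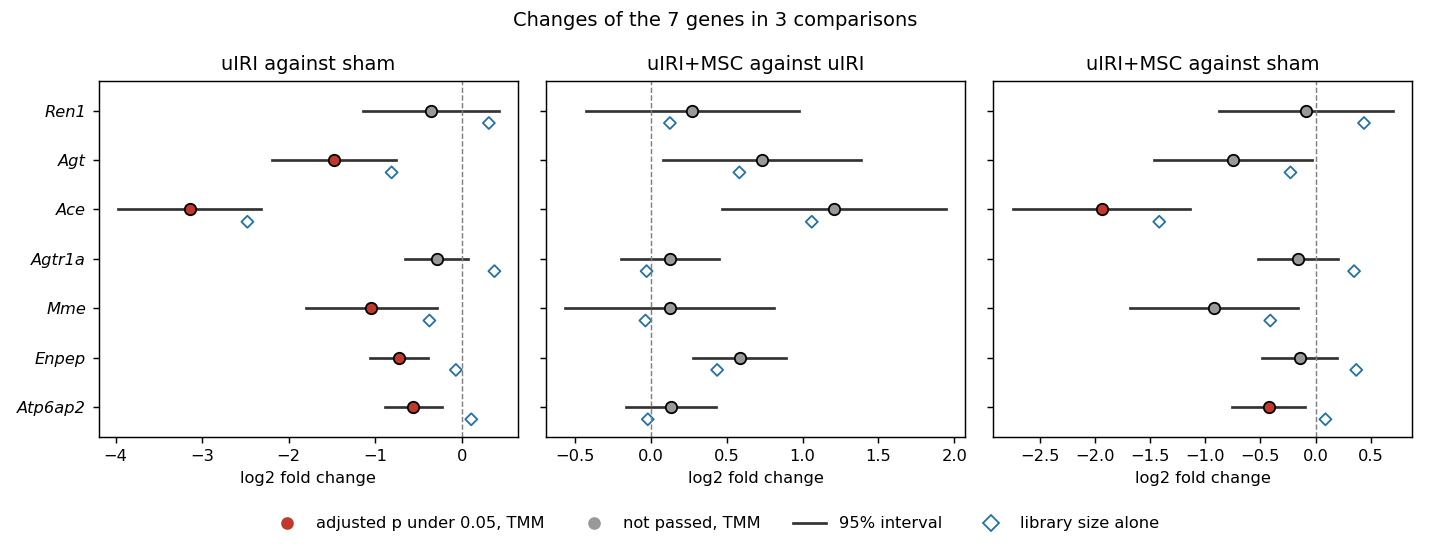
Log2 fold change of each member (horizontal axes, which differ in range between panels) in the 3 comparisons, as circles with 95% intervals on the TMM scale (red where the adjusted p was under 0.05) and as diamonds with library size alone. Ace lies farthest from 0 in each comparison, at -3.15, 1.21 and -1.94, and the diamonds of Ren1, Agtr1a and Atp6ap2 lie on the other side of 0 from their circles in both comparisons with sham, as does that of Enpep for uIRI+MSC against sham.

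The comparison of uIRI+MSC with sham asked what difference from sham was left after the transplant. It shares its sham libraries with the first comparison and is not independent of it. Ace and Atp6ap2 fell (2 of 7 members), 0 rose, and the other 5 did not pass. In this comparison 42.4% of all tested genes were called (22.1% as higher and 20.3% as lower), and by library size alone 7400 genes were called higher and 1352 lower. Ace fell 3.84-fold (log2 change -1.94 ± 0.35, interval -2.75 to -1.13, adjusted p = 0.00300) and was called in all 16 alternative settings, from -1.42 to -2.20. Atp6ap2 fell by 0.43 ± 0.14 on the log2 scale (adjusted p = 0.0422), was at 0.088 with library size alone, and was lost without either sham library (adjusted p = 0.204 without sham 1 and 0.161 without sham 2), without any of the uIRI libraries (0.0515 to 0.0551), and without uIRI+MSC 1 (0.103) or 3 (0.0711).

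Agt had a log2 change of -0.75 ± 0.31 against sham (interval -1.46 to -0.03, adjusted p = 0.0861) and Mme one of -0.92 ± 0.33 (interval -1.68 to -0.16, adjusted p = 0.0532). Without uIRI+MSC 3 Mme was at -1.39 (adjusted p = 0.000715). Enpep was at -0.14 ± 0.15 (interval -0.48 to 0.20, adjusted p = 0.466) and at 0.37 with library size alone (adjusted p = 0.0563). Agtr1a was at -0.16 ± 0.16 (interval -0.53 to 0.20) and Ren1 at -0.08 ± 0.35 (interval -0.87 to 0.70), and with library size alone they were at 0.35 and 0.44. In CPM 6 of 7 members, all but Ren1, had no overlap with sham, against 64.2% of all tested genes.

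Set side by side per length, as FPKM divided by the TMM factors, Ace changed its place among the members. In sham Ace led at 69.8 ± 22.7 (SD, n = 2), followed by Agt at 58.7 ± 13.6, Atp6ap2 at 55.4 ± 0.676, Enpep at 39.4 ± 1.96, Ren1 at 30.0 ± 0.226, Agtr1a at 27.6 ± 0.819 and Mme at 19.3 ± 2.92. Neighbours are taken as within their spread where the gap is smaller than the larger SD, which was so for the first 3. In uIRI the order was Atp6ap2 at 37.6 ± 3.40 (SD, n = 3), Enpep at 23.7 ± 3.25, Ren1 at 23.4 ± 4.58, Agtr1a at 22.6 ± 2.37, Agt at 21.1 ± 5.61, Mme at 9.33 ± 0.600 and Ace at 7.88 ± 2.96. The 4 from Enpep to Agt did not differ beyond their spread, nor did Mme and Ace. In uIRI+MSC Atp6ap2 again led at 41.2 ± 5.03, then Enpep at 35.6 ± 1.57, Agt at 34.9 ± 11.1, Ren1 at 28.3 ± 13.5, Agtr1a at 24.6 ± 3.73, Ace at 18.2 ± 5.26 and Mme at 10.2 ± 5.21, where gaps larger than either SD lay between Atp6ap2 and Enpep, between Agtr1a and Ace, and between Ace and Mme.

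Of 17 other genes of angiotensin formation, breakdown and signalling, 16 were in the table and 10 could be tested. In uIRI 5 of the 10 fell, 0 rose and 5 did not pass, while 26.3% of all tested genes were called lower. The median log2 change of the 10 was -0.37. Those that fell were the peptidases Anpep (aminopeptidase N, -1.06 ± 0.18, adjusted p = 0.00127) and Nln (neurolysin, -0.52 ± 0.13, 0.0102), the kallikrein gene Klk1 (-1.91 ± 0.31, 0.00101), the receptor-binding protein gene Agtrap (-0.76 ± 0.15, 0.00249) and the receptor gene Mas1 (-2.21 ± 0.60, 0.0134). Mas1 was scarce, at means of 2.75, 0.60 and 0.75 CPM in sham, uIRI and uIRI+MSC, and did not pass without sham 1 (adjusted p = 0.0934), where 3 of the 10 were called. Nln did not pass without sham 1 (0.054) or sham 2 (0.0722) and was at 0.15 with library size alone. The 5 that did not pass, Lnpep, Ctsa, Prcp, Prep and Thop1, ranged from -0.22 to 0.23. Scaling by library size alone put Anpep at -0.39 (adjusted p = 0.0852) and Agtrap at -0.10, and left Klk1 and Mas1 as the 2 called lower. It called those other 5 higher, on a scale where most of all called genes were higher. The list's median was then 0.295, below the median of all tested genes on that scale. With TMM it was also below, at -0.37 against 0.06. The sign of the list's changes thus depends on the scaling, while its median lay below that of all tested genes on both scales.

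Against sham 4 of the 10 fell in uIRI+MSC: Klk1 (-2.35 ± 0.31, adjusted p = 0.000706), Anpep (-0.91 ± 0.18, 0.00443), Agtrap (-0.61 ± 0.15, 0.0107) and Mas1 (-1.85 ± 0.61, 0.0386), and 0 rose, while library size alone called 1 lower and 5 higher. In that comparison 20.3% of all tested genes were called lower with TMM, and with library size alone most of all called genes were higher. Klk1, a protease of the distal nephron, had means of 1754 CPM in sham, 467 in uIRI and 343 in uIRI+MSC. Agtrap was lost without sham 1 (adjusted p = 0.08) or sham 2 (0.0666), and Mas1 was lost under 8 of the 15 alternatives that tested it. Against uIRI 0 of the 10 were called, with a median of 0.14. Untested for low counts were Agtr1b, Agtr2, the mast cell proteases Cma1 and Cpa3 (0 counts in both sham libraries and at most 6 in any other), and Ctsg and Mrgprd, which had 0 counts in all 8 libraries, a total that allows up to 0.0210 CPM by counting error alone. Of 6 mast cell markers, which include Cma1 and Cpa3, 5 were at 0 in sham. Among these was Fcer1a, which had 0 counts in all 8 libraries.

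Ace, Mme and Enpep belong to the brush border, so 8 other tested genes of that membrane were set beside them, 7 encoding peptidases and the eighth, Tmem27, a membrane protein without peptidase activity. In uIRI 7 of 8 fell, while 26.3% of all tested genes were called lower. The median log2 change of the 8 was -2.46, between the values of Mme and Ace. Mep1b, a meprin subunit, had -5.64 ± 0.71 (adjusted p = 0.00028), its partner Mep1a -3.07 ± 0.38 (0.000261), and the glutathione-cleaving Ggt1 -2.95 ± 0.35 (0.000225). Tmem27 fell by 2.79 ± 0.36 (0.000303). Xpnpep2, Dpep1 and Folh1 also fell, by 2.12, 1.49 and 1.13. Dpp4 was the exception, at -0.18 ± 0.19 (adjusted p = 0.453) and 0.49 with library size alone, under which 6 of 8 were called lower and Folh1 did not pass. Against sham 6 of 8 fell in uIRI+MSC with a median of -1.41, while 20.3% of all tested genes were called lower. Against uIRI 0 of 8 were called, with a median of 0.87.

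**Figure D3:**
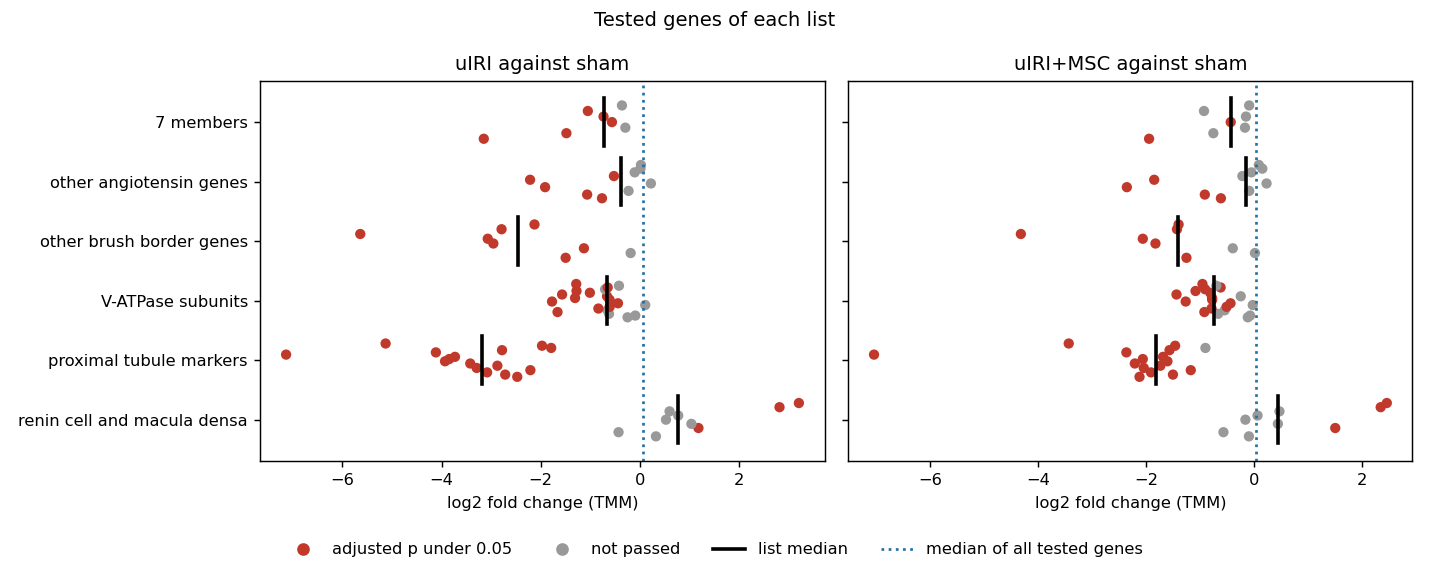
Log2 fold change on the TMM scale (horizontal axes) of the tested genes (points, red where the adjusted p was under 0.05) in 6 lists, with each list's median as a black bar and the median of all tested genes as a dotted line. For uIRI against sham the members' median is -0.73, the other brush border genes are at -2.46 and the proximal tubule markers at -3.18. With library size alone the list medians of both plotted comparisons move towards higher values. They were computed for all lists but the proximal tubule markers. For uIRI against sham 3 of 7 members, 3 of 10 other angiotensin genes, 1 of 8 brush border genes and 10 of 20 proton pump genes then change sign. The pump list includes the accessory protein gene Atp6ap1.

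The genes whose levels over the 8 libraries were most like each member were sought among 7344 tested genes with a mean FPKM of at least 5, by the root mean square difference of centred log2 CPM. Ace was closest to Mep1a, at 0.141, then to Nqo1 at 0.203 and Cth at 0.212, against a median of 1.24 over all candidates. Mep1a had 4174 and 2670 CPM in sham, 243, 588 and 394 CPM in uIRI, and 919.9, 632 and 915 CPM in uIRI+MSC, the same order of groups as Ace. Agt was closest to Herpud1 at 0.141, Slc5a1 at 0.197 and Cpt1a at 0.204, Enpep to Deptor at 0.0922, Myo6 at 0.0977 and Setd8 at 0.105, and Mme to Cog6 at 0.190, Scoc at 0.207 and Med14 at 0.218. Atp6ap2 was closest to Eral1 at 0.0490, Rheb at 0.0605 and Rnf149 at 0.0661, and Agtr1a to Atp6ap1, another accessory protein of the proton pump, at 0.0735, Zfp523 at 0.0812 and Taf6 at 0.0815. Ren1 was closest to Bik at 0.134, Prmt1 at 0.178 and Rps27a at 0.208. These likenesses share the 8 libraries and their depth and scaling, and they describe the order of levels in these libraries only.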

How the data were processed

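Messenger RNA of 8 mouse kidney libraries was sequenced, and groups were taken from the labels. Per the file headers, the table gives raw read counts per gene, made by the authors before deposit, and FPKM, which the authors scaled by gene length and total counts. The submitters' processing notes list HISAT2 2.0.4, StringTie 1.3.3b, Bowtie2 2.2.6, edgeR 3.2.0, SAMtools 1.9, FastQC 0.10.1 and the build GRCm38, without their roles. The sources used here do not give the counting program, the annotation release, the use of strand or the handling of shared reads, so overlapping and near-identical genes are uncertain.

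Counts were filtered with filterByExpr (minimum count 10), scaled by TMM, and tested with the quasi-likelihood test of edgeR 4.0.16 (R 4.3.3; glmQLFit with legacy=TRUE) on all 8 libraries together, with 5 residual degrees of freedom. Benjamini-Hochberg adjustment ran over the 16576 genes that were tested, at 0.05. The SE is the log2 change over the square root of F, and intervals are 95%. A prior count of 2 was used for log2 values of single libraries. FPKM divided by TMM factors gave levels per length and served no test across genes. Figures were drawn with matplotlib 3.10.9. DESeq2 1.42.0, limma-voom (limma 3.58.1) and 14 further settings were alternatives, and the fit was tested on simulated data. Coordinates are GRCm38, and the spans of the members equal those of GENCODE M21. Sequences are from RefSeq, each window ending before the GENCODE start of the gene. Depth was 11592986 to 24300112 counts, and replicates of a group differed by 20.5 to 79.1 times counting variance, so the spread between libraries sets the precision.

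The members and gene lists were chosen with earlier results of these data known. Genes were named by rule: all members, any tested gene of the angiotensin, kinin, renin cell and brush border lists, 4 proton pump subunits by p, and 3 genes most like each member. One further gene of these lists is not reported here.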

Additional observations from a re-analysis of the deposited data

How the results depend on the processing

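For uIRI against sham 5 members were called, 2 with library size alone and 3 to 5 when 1 library was left out; other angiotensin genes called were 5, and 3 (without sham 1) to 5. For uIRI+MSC against uIRI 0 genes were called, 0 to 8 with 1 library left out and 1336 by DESeq2, which called 2 members (Ace and Enpep). For uIRI+MSC against sham 7029 genes were called, 3938 (without sham 1) to 6914 with 1 library left out; members called were 2, 1 with library size alone, 1 with only the 2 groups compared fitted, and 1 to 2 with 1 library left out; other angiotensin genes called were 4, and 2 to 4. With library size alone, uIRI against sham turned to 0.31 for Ren1, 0.38 for Agtr1a, 0.11 for Atp6ap2, 0.15 for Nln and 0.49 for Dpp4 (adjusted p = 0.0452), and 11033 genes were called, 9044 higher and 1989 lower. In uIRI+MSC against uIRI it turned Agtr1a to -0.028, Mme to -0.036 and Atp6ap2 to -0.020, and against sham Ren1 to 0.44, Agtr1a to 0.35, Enpep to 0.37 and Atp6ap2 to 0.088. The median of all tested genes moved with them. With 1 library left out, Ren1 in uIRI+MSC against uIRI ran from -0.16 (without uIRI+MSC 2) to 0.55, and Mme from -0.37 (without uIRI+MSC 3) to 0.33. Ren1 in uIRI+MSC against sham ran from -0.52 (without uIRI+MSC 2) to 0.21 (without uIRI+MSC 3). The causes were not tested.

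Replicate numbers gave no sign of pairing: correlations of deviations ran from -0.21 to 0.11 for same-numbered libraries and from -0.20 to 0.21 for the others. Deviations were centred within groups of 2 or 3 libraries, which ties these values to each other, so they cannot settle whether libraries were paired. A fit with the replicate block called 7959, 0 and 5753 genes and 5, 0 and 2 members, turned Ren1 in uIRI+MSC against sham to 0.073, called Mme there (-1.23, adjusted p = 0.0202) and did not call Atp6ap2 (-0.47, 0.0694). Mme in that comparison also passed with median-of-ratios scaling (0.0453), no filter (0.0482), limma-voom (0.0395) and DESeq2 (0.0197). Ace was called in all 16 alternatives in both comparisons with sham. Genes with few counts, such as Mas1, Bdkrb2 and the untested receptors, are limited by depth.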

Other observations

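Kinins are degraded by Ace and Mme and formed by kallikreins such as Klk1, so 5 genes of that system were read beside the angiotensin genes, of which 4 could be tested. Kng2, a kininogen gene, had a mean of 405 CPM in sham, 105 CPM in uIRI and 90.6 CPM in uIRI+MSC, and fell by 1.94 ± 0.25 on the log2 scale in uIRI (adjusted p = 0.000329) and by 2.16 ± 0.25 in uIRI+MSC (0.000417), both against sham. Its neighbour in sequence, Kng1, had a log2 change of -0.71 in uIRI (adjusted p = 0.129), and reads shared between them cannot be assigned from the sources used here. Bdkrb2, the constitutive bradykinin receptor gene, rose from 2 and 6 counts in sham to 46, 62 and 45 in uIRI (2.37 ± 0.58, adjusted p = 0.00813) and to 38, 49 and 24 in uIRI+MSC (2.62 ± 0.58, 0.00738). Without sham 1 it did not pass in either (1.85, adjusted p = 0.0685, and 2.11, 0.0635). Cpn1, a kinin-trimming carboxypeptidase, had means of 86.7 CPM in sham, 90.1 CPM in uIRI and 172 CPM in uIRI+MSC. Its log2 change was 0.06 ± 0.41 in uIRI against sham (adjusted p = 0.92) and 0.93 ± 0.37 in uIRI+MSC against uIRI (adjusted p = 0.207). In uIRI+MSC against sham it was 0.99 ± 0.42 (adjusted p = 0.0911, and 0.0153 with library size alone). There the libraries did not overlap for Cpn1, which was also so for 64.2% of all tested genes. By edgeR 0 of the 4 were called in uIRI+MSC against uIRI, as were 0% of all tested genes. At an unadjusted p under 0.05 there was 1 of 4, Cpn1, against 20.6% of all tested genes.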
